A study of Mus musculus with 12 samples.

Results

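The genes described here are 35 members of the amino acid response and the integrated stress response, taken by their symbols from a table of 47729 genes. All 35 symbols were found in the table. Their mRNA was sequenced in E14Tg2a, a line of mouse embryonic stem cells from strain 129/Ola. Wild-type cells (WT) were set beside delta 0.7, here called delta, in which a region that regulates the gene Tcf15 is deleted on both alleles (chromosome 2, 152177049 to 152177722, mm10 build, 674 bases). Cells of both genotypes were sampled in serum-free N2B27 with 2i and LIF (0 h), and after 12 h or 24 h on fibronectin-coated plates in serum-free N2B27 with Activin, bFGF and KOSR, which starts the passage to epiblast-like cells. There were 2 libraries in each of the 6 groups, numbered replicate 1 and replicate 2. The delta columns carry the name of 1 clone, so that genotype and clone cannot be told apart, and whether replicates came from separate cultures is not stated. The p-values measure the spread between these libraries, which may be technical.

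In the integrated stress response, kinases that sense missing amino acids (GCN2, gene Eif2ak4) or misfolded proteins in the endoplasmic reticulum (PERK, gene Eif2ak3) phosphorylate the translation factor eIF2. Most protein synthesis then slows, while the mRNA of the transcription factor ATF4 is translated more, and ATF4 turns on genes that make amino acids, charge tRNAs and, later, feed back on the response. The phosphorylation of eIF2 and the amount of ATF4 protein were not measured here. In stem cells the same enzymes supply serine, glycine, proline and asparagine for growth.

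Values are FPKM, fragments divided by a gene's length and by the depth of the library, which allow levels of different genes to be compared. Changes are differences of group means on the log2(FPKM + 1) scale, which understates the change of low genes. A gene is said to have risen, fallen or been called where the adjusted p was under 0.05 in limma's moderated test, adjusted over the 13981 genes that reached 1 FPKM in at least 2 libraries. Of the 35 genes, 34 passed that filter. Vldlr, a receptor for lipoproteins and reelin, did not: it was at 0.00721 to 0.492 FPKM, or 1 to 87 reads a library. Nupr1 and Stc2 reached 1 FPKM outside 0 h in no library but WT 24 h replicate 1, so they passed through the group in which they were high.

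Depth, recovered from the steps of the FPKM values, was 9740851 to 17571255 reads a library. The pluripotency gene Pou5f1 was at 535 to 1110 FPKM and Sox2 at 213 to 342 FPKM in all 12 libraries, and Sall4 at 22.2 to 73.5 FPKM. Nanog, known to fall as naive cells are primed, was at 255 to 417 FPKM at 0 h, 191 to 198 FPKM at 12 h and 31.1 to 68.5 FPKM at 24 h. The summed level of 8 fibroblast markers was 21.7, 49.2 and 42.5 FPKM in the WT replicate 1 libraries of 0, 12 and 24 h and 2.45 to 6.87 FPKM in the other libraries, while that of 6 primitive endoderm markers was 0.298 to 0.939 FPKM. Summed trophoblast markers were at 23.7 to 50.7 FPKM, with Krt8 at 9.33 to 27.8 FPKM. Summed neural markers were at 10.5 to 46.4 FPKM, with Tubb3 at 9.17 to 46.1 FPKM. The part of the fibroblast, trophoblast and neural markers in the results was not tested. The replicate 1 libraries of 0 h stood apart: ribosomal protein genes held 11.4% (WT) and 13.4% (delta) of their reads against 5.73% to 7.50% elsewhere. In delta 0 h replicate 1, 8.04% of reads were on rRNA-like genes, against 0.261% to 3.54% in the other libraries, and its part in the delta changes was not tested beyond leaving it out. Mitochondrially encoded genes held 0.395% to 0.584% of reads in replicate 1 libraries and 1.67% to 2.64% in replicate 2 libraries. Tcf15, the gene that the deleted region regulates, differed by -3.27 ± 0.27 (SE) in delta on the log2 scale, averaged over the 3 times (limma adjusted p = 0.005).

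ATF4 binds with C/EBP partners to a composite site, the C/EBP-ATF response element. The 250 bases before each gene's start in RefSeq (GRCm38.p6) were searched on both strands for the letters TGATGNAA. Promoters were given for 30 of the 35 genes, and Cth, Eif4ebp1, Cars, Wars and Nars had no entry. Of the 30 genes, 8 held a match, against 3.45% of all 32851 promoters and 1.81% of the 11644 promoters of tested genes. The 8 matches are shown, each within 60 bases of the gene's own strand read 5′ to 3′ with the match in capitals, because the site is the known binding element of ATF4. The other 22 genes with an entry held no match in this window.

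Asns: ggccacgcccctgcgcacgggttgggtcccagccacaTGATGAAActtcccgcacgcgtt
Nupr1: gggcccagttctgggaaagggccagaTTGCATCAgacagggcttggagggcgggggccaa
Chac1: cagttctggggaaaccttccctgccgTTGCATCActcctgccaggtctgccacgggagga
Herpud1: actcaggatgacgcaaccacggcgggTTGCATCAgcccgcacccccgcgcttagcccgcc
Pycr1: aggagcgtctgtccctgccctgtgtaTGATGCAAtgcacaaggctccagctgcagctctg
Gars: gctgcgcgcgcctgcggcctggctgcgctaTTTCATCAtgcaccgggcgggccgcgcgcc
Aars: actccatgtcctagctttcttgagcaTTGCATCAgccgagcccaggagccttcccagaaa
Vldlr: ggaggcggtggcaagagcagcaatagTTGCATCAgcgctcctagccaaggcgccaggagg

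The Asns window lies at chr6:7693210-7693269 on the minus strand, with the match 23 bases before the start. Nupr1 lies at chr7:126625547-126625606 (minus, 110 bases before the start), Chac1 at chr2:119351023-119351082 (plus, 193 bases) and Herpud1 at chr8:94386291-94386350 (plus). Pycr1 lies at chr11:120643818-120643877 (minus, 103 bases), Gars at chr6:55037941-55038000 (plus, 30 bases), Aars at chr8:111033704-111033763 (plus) and Vldlr at chr19:27216794-27216853 (plus, 200 bases). TTGCATCA and TTTCATCA are matches on the other strand, so 6 of the 8 genes carry TGATGCAA and Asns and Gars carry TGATGAAA. The endoplasmic reticulum stress element was searched in the same way and found in none of the 30 genes, Herpud1 included, and in 0.113% of all promoters. A match describes these letters and is not a measured binding site.

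Where a change was called as the cells left 2i and LIF, the gene fell. In WT, 4 of the 34 tested genes fell by 12 h, against 1.90% of all genes that fell, and 5 fell by 24 h (4.94% of all genes). In delta, 12 fell by 12 h (3.45% of all genes) and 10 by 24 h (7.80% of all genes). No member was called higher in any of these 4 changes, against 2.13% and 5.27% of all genes in WT and 3.55% and 7.58% in delta. Nupr1, Trib3, Asns and Sars fell in all 4 changes, 14 members changed in at least 1 contrast, and 20 tested members were called in none. These counts include Nupr1 and, in delta at 12 h, Stc2. Both passed the filter through 0 h, where they were high, so their falls are not independent of the filter. In bulk RNA, fewer cells of a type and less RNA per cell cannot be told apart.

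The direction was shared more widely than the calls. The median change of the 34 genes was -0.60 at 12 h and -0.47 at 24 h in WT, and -0.83 and -0.68 in delta, against -0.05 to -0.02 for all genes. Between 28 and 30 of the 34 lay below 0 in each of the 4 changes. The share of all genes below 0 is not given here, but their median lay just below 0. In 25 genes both WT 12 h libraries lay below both WT 0 h libraries (25.8% of all genes did so), in 17 at 24 h (27.4%), in 26 in delta at 12 h (24.3%) and in 23 at 24 h (26.7%). The opposite order was seen in 3, 1, 4 and 2 genes, against 22.2%, 24.3%, 24.4% and 24.8% of all genes. The members' share of all reads went from 0.532% to 0.651% at 0 h to 0.398% to 0.429% at 12 h and 0.362% to 0.424% at 24 h, with no overlap between 0 h and later libraries.

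**Figure D1:**
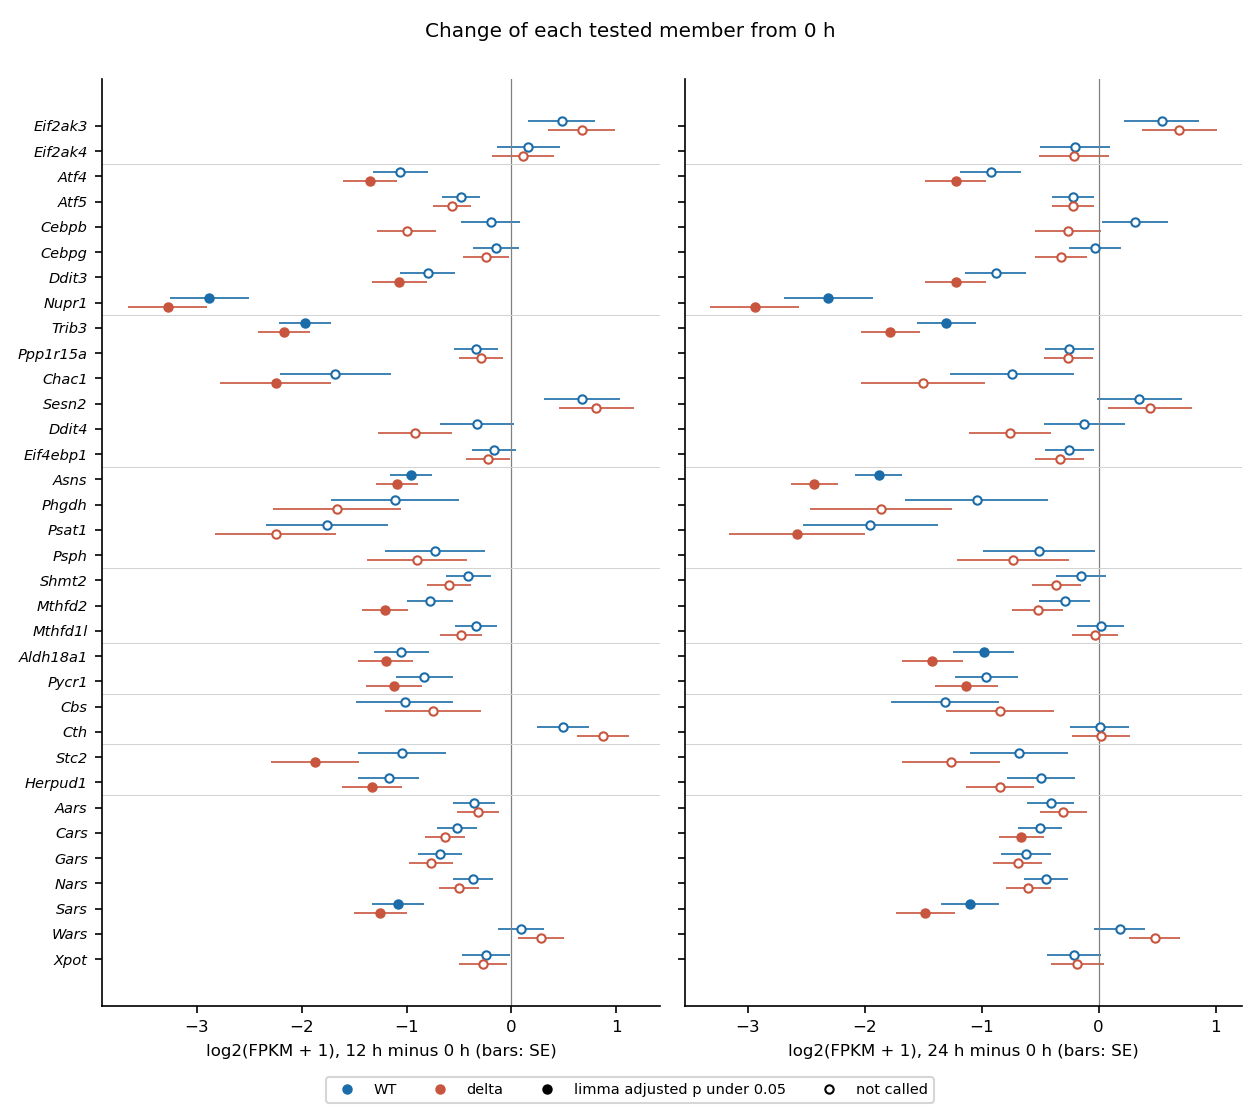
Change of each of the 34 tested genes from 0 h to 12 h (left) and to 24 h (right), as the difference of group means of log2(FPKM + 1). Blue is WT, red is delta, bars are standard errors (2 libraries a group), filled points are called by limma at an adjusted p under 0.05, and grey lines separate the roles. All filled points lie below 0: 4 and 5 in WT, 12 and 10 in delta.

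Within each time replicate numbers paired the samples: libraries of the same number deviated together in both genotypes. The replicate block further assumes the same shift between replicates at every time, which was not tested. With the replicate number as a block, more members fell: 11 and 10 in WT at 12 and 24 h (3.40% and 7.23% of all genes), and 16 at each time in delta (5.56% and 10.9% of all genes). None rose with the block, and all calls of the fit without it were kept.

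Among the transcription factors, Atf4, Ddit3 and Nupr1 were high in 2i and LIF. Atf4 was at 206 and 156 FPKM in WT at 0 h (replicates 1 and 2), 83 and 88.5 FPKM at 12 h, and 102 and 87.9 FPKM at 24 h. In delta it was at 245 and 162, then 85.4 and 70.6, then 98.3 and 73.4 FPKM. Every later library lay below every 0 h library. The fall was called in delta, with log2 changes of -1.35 ± 0.26 (SE) at 12 h (adjusted p = 0.017) and -1.22 ± 0.26 at 24 h (adjusted p = 0.014). In WT the differences were -1.06 ± 0.26 (adjusted p = 0.059) and -0.92 ± 0.26 (adjusted p = 0.056), without a call. The replicate block took both past the threshold (adjusted p = 0.015 and 0.014), as did quantile normalization (0.026 for both). Leaving out either delta 0 h library did so too, but left both WT differences as they were. Here and below, leaving out a library of a group outside a comparison alters only the spread shared by all groups.

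Ddit3 encodes CHOP, which ATF4 induces and which is known for promoting cell death under lasting stress. It was at 13.7 and 8.74 FPKM in WT at 0 h, 4.93 and 6.90 FPKM at 12 h, and 6.11 and 4.94 FPKM at 24 h. The delta libraries held 13.4 and 9.87, then 4.45 and 5.51, then 4.55 and 4.20 FPKM. Ddit3 fell in delta, with changes of -1.07 ± 0.26 (adjusted p = 0.039) and -1.22 ± 0.26 (adjusted p = 0.013). The call at 12 h was lost in 13 of the 20 alternatives. Among them were no filter, quantile normalization, median centring and limma-voom on the recovered reads. In WT Ddit3 differed by -0.80 ± 0.26 (adjusted p = 0.14) and -0.88 ± 0.26 (adjusted p = 0.063), with 0 h and later libraries apart in both genotypes. Without WT 0 h replicate 1 the WT differences were -0.51 and -0.58. That at 24 h passed without WT 0 h replicate 2 (-1.17, adjusted p = 0.042) or either delta 0 h library (adjusted p = 0.037).

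Nupr1, a small stress-induced chromatin protein, had the largest change of the 34 genes in each of the 4 changes from 0 h with all libraries. Nupr1 passed the filter through 0 h, where it was high, so this rank is not independent of the filter. Without delta 0 h replicate 2 Psat1 exceeded it in delta (-3.04 and -3.37, against -2.95 and -2.62). Within replicate 1 alone, Psat1 also exceeded it in WT at 24 h (-2.3 against -2.13). Nupr1 was at 12.1 and 8.03 FPKM in WT at 0 h, 0.937 and 0.120 FPKM at 12 h, and 1.99 and 0.596 FPKM at 24 h. The delta libraries held 8.52 and 13.9, then 0.223 and 0.231, then 0.646 and 0.462 FPKM. Behind these values stood 192 to 612 reads a library at 0 h and 3 to 64 reads later. The change was -2.88 ± 0.38 and -2.31 ± 0.38 in WT (adjusted p = 0.004 and 0.005) and -3.28 ± 0.38 and -2.94 ± 0.38 in delta (adjusted p = 0.0016 and 0.0011). Without the pseudocount of 1 FPKM, in limma-voom on the recovered reads, the changes at 12 h were -4.57 in WT and -5.52 in delta.

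Atf5, Cebpb and Cebpg were not called with all libraries. Atf5, which like ATF4 is translated under stress, ranged from 24.7 to 44.7 FPKM, and Cebpg, a partner of ATF4 at the composite site, from 4.18 to 6.55 FPKM. Cebpb, another partner, ranged from 1.44 to 5.72 FPKM, with its highest value in delta 0 h replicate 2. In delta at 12 h, leaving out delta 0 h replicate 1 called Cebpb (-1.31, adjusted p = 0.035) and Atf5 (-0.75, adjusted p = 0.035), and quantile normalization called Cebpb (-1.03, adjusted p = 0.041). None of the 6 factors was higher in the later means by more than 0.31, the value of Cebpb in WT at 24 h.

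Trib3, a pseudokinase that ATF4 and CHOP induce and that restrains them in turn, was the clearest of the feedback genes. In WT it was at 27.6 and 21.8 FPKM at 0 h, 5 and 6.03 FPKM at 12 h, and 11.5 and 7.64 FPKM at 24 h. Delta cells had 27.7 and 19.1, then 3.85 and 4.88, then 6.20 and 5.79 FPKM. Trib3 fell in all 4 changes: -1.97 ± 0.25 at 12 h and -1.30 ± 0.25 at 24 h in WT (adjusted p = 0.0036 and 0.012), and -2.17 ± 0.25 and -1.78 ± 0.25 in delta (adjusted p = 0.0017 and 0.0019).

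Chac1, which breaks down glutathione and is a late target of CHOP, was at 6.87 and 3.61 FPKM in WT at 0 h, 1.58 and 0.367 FPKM at 12 h, and 4.82 and 1.24 FPKM at 24 h. The corresponding delta values were 5.58 and 6.78, then 0.441 and 0.576, then 2.74 and 0.709 FPKM. At 12 h all later libraries lay below those of 0 h, and at 24 h the WT groups overlapped. Chac1 fell in delta at 12 h (-2.25 ± 0.53, adjusted p = 0.037, and -3.57 by voom). With the block, WT at 12 h (-1.68, adjusted p = 0.042) and delta at 24 h (-1.5, adjusted p = 0.029) passed as well.

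The other brakes were not called in the change from 0 h. Ppp1r15a, whose product GADD34 helps a phosphatase to restore eIF2, stayed within 9.75 to 15.5 FPKM. Eif4ebp1, an inhibitor of cap-dependent translation, was among the most abundant of the genes, at 275 to 419 FPKM. Sesn2, a leucine sensor that restrains TORC1, had later means above 0 h: 27 and 54.4 FPKM in WT at 0 h against 57.6 and 66.5 FPKM at 12 h, a difference of 0.67 ± 0.36. In delta it differed by 0.81 ± 0.36, and neither was called.

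**Figure D2:**
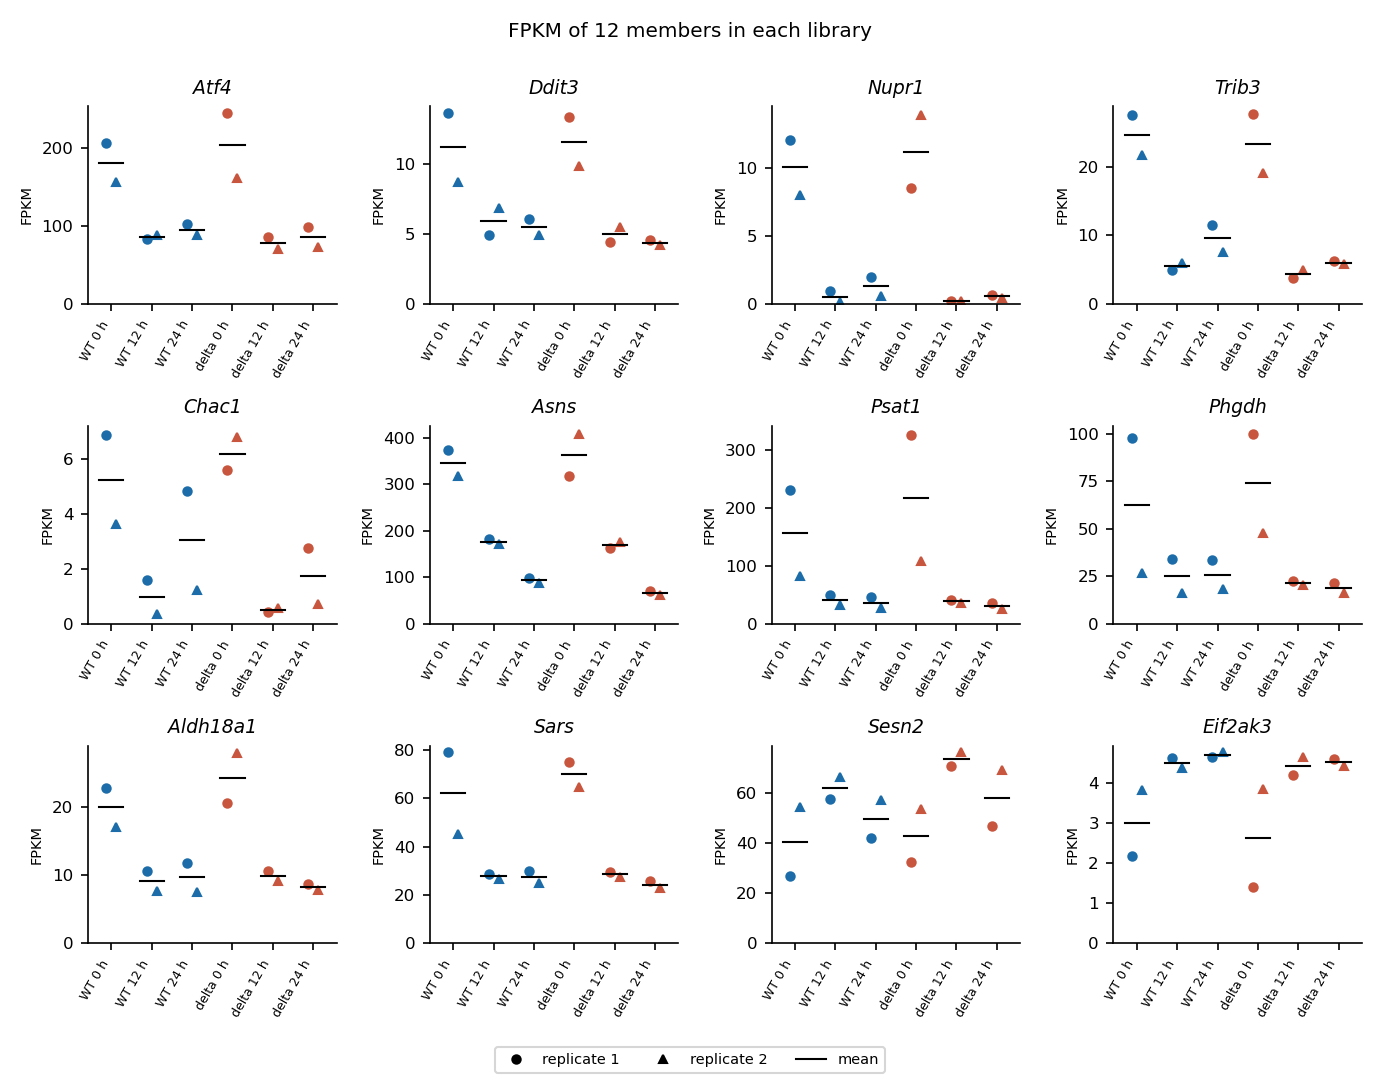
FPKM of 12 of the genes in each library (vertical axis, starting at 0), by group. Circles are replicate 1, triangles replicate 2, short lines the mean of 2 libraries, WT in blue and delta in red. Atf4, Ddit3, Nupr1, Trib3 and Asns lie lower in all later libraries than in all 0 h libraries, while Sesn2 and Eif2ak3 do not. The 12 genes were chosen after their values were seen.

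Asns encodes asparagine synthetase. It was at 374 and 318 FPKM in WT at 0 h, 182 and 171 FPKM at 12 h, and 98.4 and 88.4 FPKM at 24 h. Its levels in delta were 318 and 409, then 163 and 175, then 70.0 and 62.6 FPKM. The 3 times did not overlap in either genotype. Asns fell in all 4 changes: -0.96 ± 0.20 at 12 h (adjusted p = 0.029) and -1.88 ± 0.20 at 24 h (adjusted p = 0.00054) in WT, and -1.09 ± 0.20 (adjusted p = 0.013) and -2.43 ± 0.20 (adjusted p = 0.00011) in delta. Under quantile normalization the change at 12 h was called in neither genotype. The adjusted p was 0.26 in WT and 0.2 in delta, where the change was -0.65.

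Phgdh, Psat1 and Psph encode the 3 enzymes that make serine from a glycolytic intermediate. Psat1 was at 230 and 82.8 FPKM in WT at 0 h, 48.7 and 32.9 FPKM at 12 h, and 46.1 and 26.4 FPKM at 24 h. In the delta line it stood at 326 and 108, then 41.1 and 36.3, then 36.3 and 25.7 FPKM. Psat1 fell in delta at 24 h (-2.58 ± 0.58, adjusted p = 0.018). With the block it passed in the other 3 changes also: -1.76 and -1.95 in WT (adjusted p = 0.02 and 0.0064) and -2.25 in delta at 12 h (adjusted p = 0.0054). Phgdh was at 98.0 and 26.9 FPKM in WT at 0 h and 100 and 47.8 FPKM in delta at 0 h, against 15.9 to 34.0 FPKM later. With all libraries it passed in delta with the block (-1.66 at 12 h, adjusted p = 0.02, and -1.86 at 24 h, adjusted p = 0.0072) and not without it. Without the block it was called in delta when delta 0 h replicate 2 was left out (-2.19 and -2.38, adjusted p = 0.047 and 0.033), and at 24 h without either WT 0 h library (-1.86, adjusted p = 0.029). Psph ranged from 17.2 to 52.6 FPKM at 0 h and from 14.6 to 20.3 FPKM later, and was not called with all libraries. Without delta 0 h replicate 2 it was called in delta at 12 h (-1.68, adjusted p = 0.017) and 24 h (-1.51, adjusted p = 0.018).

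These 3 genes were also where the 0 h replicates differed most in the same direction. Replicate 1 exceeded replicate 2 by at least 1 on the log2 scale for Phgdh, Psat1, Psph and Stc2 in WT and for Psat1, Psph and Phgdh in delta. Replicate 2 exceeded replicate 1 by as much for Cbs in WT and for Cbs and Eif2ak3 in delta. Of all tested genes, 11.4% differed by that much between the WT replicates of 0 h and 24.0% between the delta replicates of 0 h, against 1.63% to 3.05% in the later groups. The shares of ribosomal protein reads given above split the 0 h replicates the same way, and their part in these values was not tested.

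**Figure D3:**
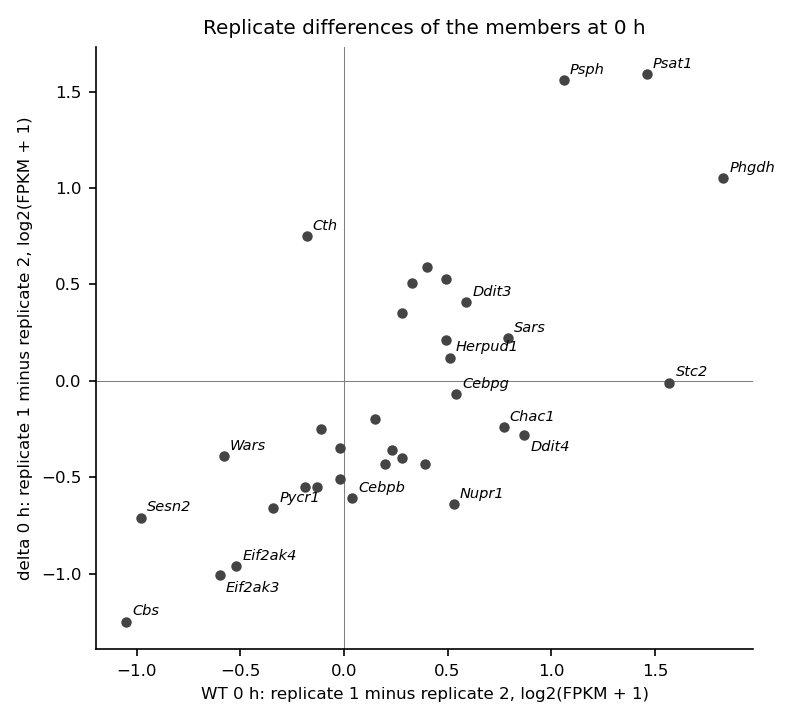
Replicate 1 minus replicate 2 at 0 h in WT (horizontal axis) and delta (vertical axis), both on the log2(FPKM + 1) scale. Each of the 34 points is a tested gene. Psat1, Phgdh and Psph lie past 1 on both axes and Cbs below -1 on both.

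Mitochondrial folate enzymes take up the serine carbon. Mthfd2 was at 25.3 and 22.7 FPKM in WT at 0 h, 15 and 12.2 FPKM at 12 h, and 23.6 and 15.9 FPKM at 24 h. In delta it was at 24.0 and 27.7, then 11.7 and 9.57, then 19.3 and 16.3 FPKM. It was lowest at 12 h in both genotypes and fell in delta at 12 h (-1.21 ± 0.22, adjusted p = 0.014). With the block it passed in WT at 12 h (-0.78, adjusted p = 0.043). Shmt2 (72.0 to 132 FPKM) and Mthfd1l (17.9 to 32.3 FPKM) were not called.

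Both enzymes of proline synthesis fell in delta at both times. Aldh18a1, which starts the path from glutamate, was at 22.7 and 17.1 FPKM in WT at 0 h, 10.6 and 7.67 FPKM at 12 h, and 11.8 and 7.56 FPKM at 24 h. The delta libraries held 20.5 and 27.9, then 10.6 and 9.12, then 8.74 and 7.88 FPKM. The fall was called in WT at 24 h (-0.98 ± 0.26, adjusted p = 0.046) and in delta at 12 h (-1.20 ± 0.26, adjusted p = 0.027) and 24 h (-1.42 ± 0.26, adjusted p = 0.0069). WT at 12 h passed with the block (-1.05, adjusted p = 0.035).

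Pycr1, which completes proline, was at 5.34 and 7.02 FPKM in WT at 0 h, 2.5 and 3.59 FPKM at 12 h, and 2.34 and 3.05 FPKM at 24 h. Delta cells had 4.42 and 7.57, then 2.55 and 1.77, then 2.01 and 2.20 FPKM. No later library reached a 0 h library. Pycr1 fell in delta at 12 h (-1.12 ± 0.27, adjusted p = 0.04) and 24 h (-1.13 ± 0.27, adjusted p = 0.022), and in WT at 24 h with the block (-0.96, adjusted p = 0.029).

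The 2 steps of transsulfuration, which makes cysteine from homocysteine, had opposite signs at 12 h, and neither was called then with all libraries. Cbs, the entry enzyme, was at 28.2 and 59.5 FPKM in WT at 0 h and 13.9 and 18.5 FPKM at 24 h, a difference of -1.31 ± 0.46 that passed with the block (adjusted p = 0.014) and without either delta 0 h library (adjusted p = 0.043). At 12 h Cbs was at 14.8 and 26 FPKM in WT. In delta it was at 16.5 and 40.6 FPKM at 0 h and 13.5 and 16.7 FPKM at 12 h, which overlapped. Cth, the enzyme that releases cysteine, was highest at 12 h. It was at 61.9 and 70.4 FPKM in WT at 0 h, 83.0 and 104 FPKM at 12 h, and 64.6 and 68.0 FPKM at 24 h. The corresponding delta values were 58.6 and 34.4, then 86.0 and 80.5, then 50.4 and 41.1 FPKM. The difference at 12 h was 0.49 ± 0.25 in WT and 0.87 ± 0.25 in delta and was not called. Without delta 0 h replicate 1 the latter was 1.25 and called (adjusted p = 0.011).

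Among the membrane, secreted and endoplasmic reticulum proteins, Herpud1, which helps to degrade misfolded proteins, was at 7.83 and 5.2 FPKM in WT at 0 h, 2.22 and 2.36 FPKM at 12 h, and 5.86 and 3.06 FPKM at 24 h. Its levels in delta were 8.17 and 7.42, then 2.99 and 2.05, then 4.70 and 3.25 FPKM. It was lowest at 12 h and fell in delta at that time (-1.33 ± 0.29, adjusted p = 0.028). With the block it passed also in WT at 12 h (-1.17, adjusted p = 0.015) and delta at 24 h (-0.84, adjusted p = 0.025).

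Stc2, a secreted glycoprotein, was at 3.59 and 0.549 FPKM in WT at 0 h, 0.333 and 0.252 FPKM at 12 h, and 1.03 and 0.358 FPKM at 24 h. In the delta line it stood at 3.64 and 3.66, then 0.248 and 0.294, then 0.966 and 0.927 FPKM. The WT replicates of 0 h differed far more than those of delta. Stc2 fell in delta at 12 h (-1.87 ± 0.42, adjusted p = 0.03, and -3.72 by voom), and at 24 h with the block (-1.26, adjusted p = 0.047) or without either WT 0 h library (adjusted p = 0.0069). Without WT 0 h replicate 2 it was called in WT too (-1.83 and -1.47, adjusted p = 0.014 and 0.017).

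The tRNA synthetases, which load amino acids onto tRNAs, differed in their changes from 0 h. Sars, the seryl-tRNA synthetase, was at 78.8 and 45.1 FPKM in WT at 0 h, 28.7 and 26.7 FPKM at 12 h, and 29.9 and 25.0 FPKM at 24 h. In delta it was at 75.0 and 64.5, then 29.6 and 27.6, then 25.9 and 22.7 FPKM. Sars fell in all 4 changes: -1.08 ± 0.25 (adjusted p = 0.049) and -1.10 ± 0.25 (adjusted p = 0.025) in WT, and -1.25 ± 0.25 (adjusted p = 0.019) and -1.48 ± 0.25 (adjusted p = 0.0045) in delta. Without WT 0 h replicate 1 the WT changes were -0.68 and -0.70.

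Cars, the cysteinyl enzyme, was at 26.6 and 28.9 FPKM in WT at 0 h, 17.0 and 21.4 FPKM at 12 h, and 17.1 and 21.9 FPKM at 24 h. The delta libraries held 29.3 and 35.1, then 20.9 and 19.8, then 19.1 and 20.6 FPKM. It fell in delta at 24 h (-0.66 ± 0.19, adjusted p = 0.046), and at 12 h with the block (-0.63, adjusted p = 0.037). Gars, the glycyl enzyme, was not called without the block and passed with it in all 4 changes (-0.77 to -0.62). Without the block it was called in delta at both times when delta 0 h replicate 2 (-0.88 and -0.80, adjusted p = 0.025 and 0.029) or either WT 0 h library was left out. Nars, the asparaginyl enzyme, passed with the block in delta at 24 h (-0.60, adjusted p = 0.048). Without delta 0 h replicate 1 Nars was called in delta at 12 h (-0.75, adjusted p = 0.02) and 24 h (-0.85, adjusted p = 0.0066), and without either delta 0 h library in WT at 24 h (-0.45, adjusted p = 0.035). Aars (37.8 to 62.9 FPKM, called in delta at 24 h without delta 0 h replicate 1, -0.58, adjusted p = 0.038), Wars (24.9 to 43.9 FPKM) and the tRNA exporter Xpot (36.6 to 58.2 FPKM) were not called with all libraries, and Wars differed by 0.09 to 0.48 in the 4 changes. Without delta 0 h replicate 2 Wars was called higher in delta at 24 h (0.68, adjusted p = 0.048).

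Neither sensor kinase was called. Eif2ak3 was at 2.19 and 3.83 FPKM in WT at 0 h and 1.41 and 3.85 FPKM in delta at 0 h, and lay within 4.21 to 4.77 FPKM in all 8 later libraries, above every 0 h library. Its differences were 0.48 to 0.69 with a standard error of 0.32 and were not called. Without delta 0 h replicate 2 those of delta were 1.17 at 12 h and 1.20 at 24 h and called (adjusted p = 0.015 and 0.0096). Eif2ak4 ranged from 2.45 to 5.70 FPKM, and its 0 h libraries held both its lowest and its highest value.

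From 12 h to 24 h Asns in delta was the only call. The median difference was 0.07 in WT and 0.03 in delta. In WT no member was called by limma (0.157% of all genes fell and 0.250% rose), and 3 had an unadjusted p under 0.05. With voom on the recovered reads and with the replicate block no member was called in WT either. In delta Asns alone fell (-1.34 ± 0.20, adjusted p = 0.015), where 0.601% of all genes fell and 0.758% rose. The call was lost under quantile normalization (-1.37, adjusted p = 0.054). In WT Asns differed by -0.91 ± 0.20 (adjusted p = 0.11), and passed without either delta 0 h library (adjusted p = 0.036). Both Asns and Nars had libraries that did not overlap from 0 h to 12 h and from 12 h to 24 h, lower each time, in both genotypes. Cth was called lower from 12 h to 24 h in delta without either delta 0 h library (-0.86, adjusted p = 0.04). Trib3 and Chac1 had higher means at 24 h than at 12 h in both genotypes, with no call.

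Between delta and WT no member was called, which does not show that the genotypes are alike. This held at 0 h, 12 h, 24 h and over the 3 times (0.00715%, 0.0143%, 0.00715% and 0.0143% of all genes were called), and 1, 0, 2 and 2 members had an unadjusted p under 0.05. Nor was a member called for a change that differed between the genotypes (0% of all genes by limma at either time, and 0 members with an unadjusted p under 0.05). The replicate block and voom called no member either. The longer list of falls in delta is therefore not shown to differ from that in WT. The difference between the genotypes' changes lay below 0 in 27 of the 34 genes at 12 h (median -0.15) and at 24 h (median -0.22). Both comparisons share the 0 h libraries. The share of all genes below 0 is not given here, so this count is not read as particular to the members.

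Ddit4, Aars and Cbs differed in the same direction in all pairs of same-numbered libraries. The share of all genes that did so is not given here, so these counts are not read as a trait of the members. Ddit4 encodes REDD1, an inhibitor of TORC1. It was at 34.7 and 18.5 FPKM in WT at 0 h, 17.9 and 22.4 FPKM at 12 h, and 18.6 and 29.2 FPKM at 24 h, against 55.6 and 67.8, 28.8 and 35.4, and 28.3 and 45.1 FPKM in delta. Delta was higher in 6 of 6 pairs, by 0.58 to 0.67 in 5 of them and by 1.82 in replicate 2 of 0 h. The mean difference over the 3 times was 0.83 ± 0.20 (adjusted p = 0.9, limma), which fails the adjustment.

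Aars and Cbs were lower in delta in 6 of 6 pairs, with mean differences of -0.24 ± 0.11 and -0.39 ± 0.27 (adjusted p = 1 for both). Cth was lower in 5 of 6 pairs (-0.41 ± 0.15, adjusted p = 1). At 24 h Asns differed by -0.49 ± 0.20 and Trib3 by -0.57 ± 0.25 (delta minus WT), both with an adjusted p of 1. At 24 h both delta libraries lay below both WT libraries in 8 genes and above them in none (16.4% and 14.3% of all genes). At 12 h the counts were 7 and 3 (15.2% and 16.8%), and at 0 h 1 and 4 (6.21% and 6.52%).

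**Figure D4:**
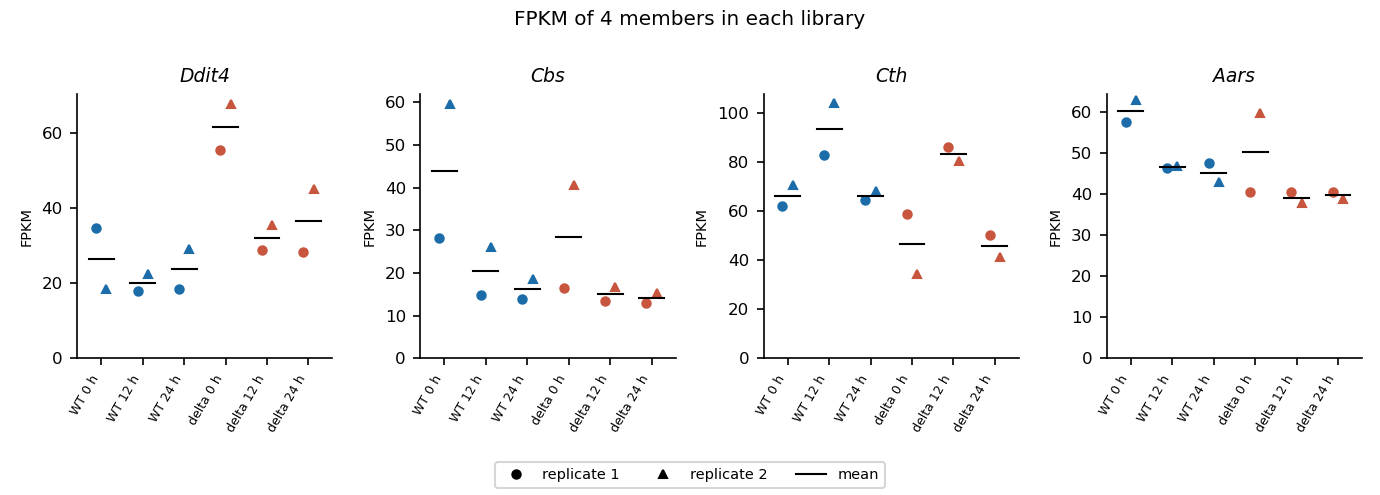
FPKM of Ddit4, Cbs, Cth and Aars in each library (vertical axes, starting at 0). Circles are replicate 1, triangles replicate 2, short lines the mean of 2 libraries, WT in blue and delta in red. Ddit4 is higher in delta than in the WT library of the same number at each time (6 of 6 pairs) and Cbs and Aars are lower (6 of 6). The 4 genes were chosen after their values were seen.

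Beyond the 35 genes, other known targets of ATF4 or CHOP fell too. Of 9 listed, 7 were tested, and 3 and 4 fell in WT at 12 and 24 h and 5 at each time in delta, with median changes of -0.84, -0.85, -1.19 and -1.48. Of all genes 1.90%, 4.94%, 3.45% and 7.80% fell in the same changes. Jdp2, a repressor of AP-1, fell in WT at 24 h (-1.63 ± 0.20, adjusted p = 0.0013). So did Map1lc3b, the autophagy protein LC3B (-1.5 ± 0.24, adjusted p = 0.0044), and Pck2, the mitochondrial PEP carboxykinase (-1.56 ± 0.34, adjusted p = 0.019). Atf3 and Fgf21 were below the filter.

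Among amino acid transporters known as ATF4 targets, the called genes went the other way, while those not called were mixed. Of 10 listed, 8 were tested, none fell, and 1 rose in WT and 2 in delta at each time. Of all genes 2.13% and 5.27% rose in WT and 3.55% and 7.58% in delta. Slc38a2, the SNAT2 carrier of small neutral amino acids, was at 36.8 and 52.6 FPKM in WT at 0 h, 98.3 and 86.5 FPKM at 12 h, and 160 and 162 FPKM at 24 h, and rose by 1.85 ± 0.23 (adjusted p = 0.0013). Slc7a3, a carrier of cationic amino acids, rose in delta by 1.63 ± 0.41 at 12 h and 1.52 ± 0.41 at 24 h (adjusted p = 0.046 and 0.035), with 1.42 ± 0.41 in WT at 24 h (adjusted p = 0.06). Slc7a1, another cationic carrier, differed by -0.89 ± 0.33 in WT at 24 h (adjusted p = 0.14). At 12 h Slc3a2, Slc7a1, Slc1a4, Slc1a5 and Slc6a9 lay below 0 in both genotypes, with no call. Slc7a5, Slc7a3 and Slc38a2 lay above 0. The lowest was Slc1a4, at -1.14 ± 0.39 in WT and -1.3 ± 0.39 in delta.

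In the other lists the called genes were 0 to 2 of each, nearly all in delta at 24 h, when 7.80% of all genes fell and 7.58% rose. Of 14 other cytosolic tRNA synthetases, 1 fell, in delta at 24 h (Mars, -0.88 ± 0.26, adjusted p just under 0.05), with medians of -0.18 to -0.02, and of 17 mitochondrial ones none was called, with medians of -0.17 to -0.09. Among 13 genes of eIF2, eIF2B and their regulators, Eif2b4 fell in WT at 24 h (-0.89 ± 0.18, adjusted p = 0.015) and Eif2b4 and Eif2s2 fell in delta at 24 h. Of 17 genes of the IRE1 and ATF6 arms of the unfolded protein response, none fell and 2 rose, in delta at 24 h: Xbp1 (0.82 ± 0.19) and Dnajc3 (0.66 ± 0.19). Their medians lay between -0.16 and 0.06. Of 10 further enzymes of serine, folate, proline and glutamine metabolism 1 fell, in delta at 24 h (Got1, -0.53 ± 0.15), and of 4 paralogs of the TORC1 and translation brakes none was called.

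The calls rested unequally on single libraries. The shares of all genes called without a library are not given here. The counts in this paragraph and the next are therefore not read as particular to the members. The falls of Nupr1 in all 4 changes, of Trib3 in all but WT at 24 h, of Asns at 24 h in both genotypes and of Sars in delta at 24 h were kept in all 20 alternatives, 12 of which leave out 1 library. In WT at 12 h the count of 4 went to 2 without any 1 of 9 libraries (all but WT 0 h replicate 2 and the delta 0 h libraries), as Sars and Asns lost their calls (adjusted p up to 0.22 and 0.16). Asns lost its call without WT 0 h replicate 2 as well. In WT at 24 h the count of 5 went to 2 without WT 0 h replicate 1 or WT 24 h replicate 2, to 3 without WT 24 h replicate 1 or either delta 12 h library, and to 11 without either delta 0 h library. Trib3 (without WT 0 h replicate 1 or WT 24 h replicate 2, adjusted p up to 0.092), Sars (without any of those 5 libraries that lowered the count, up to 0.15) and Aldh18a1 (without any library but the delta 0 h ones, up to 0.28) were the calls lost.

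In delta at 12 h, leaving out either delta 12 h library reduced the count from 12 to 2, Nupr1 and Trib3 (the other 10 reached adjusted p of 0.13 to 0.27). Atf4, Asns and Mthfd2 lost their calls only without one of these libraries. Chac1 and Sars also lost it without delta 0 h replicate 1, Aldh18a1 without either delta 24 h library, Herpud1 without delta 0 h replicate 1 or either WT 12 h library, and Stc2 without any of these 5. Ddit3 and Pycr1 lost it without any 1 of 9 libraries, Ddit3 keeping it without WT 0 h libraries or delta 0 h replicate 2 and Pycr1 without WT 0 h libraries or delta 0 h replicate 1. In delta at 24 h the count of 10 went to 6 without replicate 1 and 4 without replicate 2 of that group. Atf4 and Aldh18a1 lost the call without replicate 2 (adjusted p = 0.13 and 0.065), Ddit3 and Pycr1 without either (up to 0.096 and 0.12), Psat1 also without delta 0 h replicate 1 (up to 0.13), and Cars without any library but that one (up to 0.21). Leaving out both 0 h replicate 1 libraries took the counts in delta from 12 to 21 and from 10 to 17, and that in WT at 24 h from 5 to 9. Asns between 12 and 24 h in delta lost its call without any 1 of the 4 delta libraries of those times (adjusted p up to 0.20). Leaving out 1 library also added calls for Psat1 in WT at 24 h (without WT 0 h replicate 2 or either delta 0 h library) and in delta at 12 h (without delta 0 h replicate 2 or either WT 0 h library). Without either delta 0 h library Aldh18a1 was called in WT at 12 h (adjusted p = 0.038) and Pycr1 in WT at 24 h (adjusted p = 0.021).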

How the data were processed

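The authors deposited FPKM values of 47729 genes in 12 libraries. The submitters' processing notes name cutadapt, STAR 2.5.2b, featureCounts 1.5.1, edgeR 3.16.5 and build mm10, with no role or order. The use of strand in counting was not given in those sources. Reads a library were recovered from the FPKM steps: all 28657 genes above 0 came out whole within 0.01. They were used for depth and shares of reads, and for a voom fit added after the data were seen.

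limma 3.58.1 (R 4.3.3) was fitted to log2(FPKM + 1) of the 13981 genes at 1 FPKM or more in at least 2 libraries. The fit had 6 group means, eBayes with a trend and 6 residual degrees of freedom, with Benjamini-Hochberg adjustment over all genes and a threshold of 0.05. It was checked on simulated data. Motifs were searched with Python 3.11.15. Same-numbered WT and delta libraries deviated together (correlation 0.70, 0.28 and 0.37 at 0, 12 and 24 h), so that the numbers, taken from the titles, pair the samples within each time. Library values are given for each member called in 1 or more contrasts and for Atf4, Ddit3, Asns and Trib3, and up to 3 genes of each pathway list are named by their adjusted p in WT at 24 h. Further members with library values were chosen after these were seen. The members and lists were chosen with earlier results of these data known. Alternatives were the pseudocount, filter, scaling, replicate block, voom and leaving out libraries.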

Additional observations from a re-analysis of the deposited data

How the results depend on the processing

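The 36 named gene results kept their direction in all 719 refits, 126 of which lost and 13 of which gained a call. With the replicate block, 11 and 10 members fell in WT at 12 and 24 h and 16 in delta at 24 h, in place of 4, 5 and 10. The block called no member between the genotypes. Without a filter 6 members, not 12, fell in delta at 12 h. Quantile normalization called 1 member higher there (Cth) and 0 lower from 12 to 24 h in delta. Without both 0 h replicate 1 libraries, 9 fell in WT at 24 h, 1 from 12 to 24 h in WT, 21 and 17 in delta at 12 and 24 h and 2 from 12 to 24 h in delta, and 1 rose in delta at 12 h. Leaving out 1 library gave 2 to 6 falls in WT at 12 h, 2 to 11 at 24 h and 0 to 1 from 12 to 24 h. In delta it gave 2 to 15 falls and 0 to 1 rises at 12 h, 4 to 12 falls and 0 to 2 rises at 24 h, and 0 to 2 falls from 12 to 24 h. Of these refits, shares of all genes are given above for the replicate block alone. The other counts are therefore not read as particular to the members. The causes were not tested. A group with 1 library left was assumed to vary like the others. Leaving out a library of a group outside a comparison alters its p-values through that shared spread and leaves its difference as it was. A block within each time was fitted for genotype comparisons alone. Depth limits Nupr1, Chac1 and Stc2 most, with as few as 3 reads for Nupr1 in WT 12 h replicate 2.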
